A study of Mus musculus with 9 samples.

Results

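Glucose output and glucose entry in the liver were followed through 9 genes, chosen by their symbols: Pck1, G6pc, Fbp1, Pcx, Ppargc1a, Gckr, Pklr, Slc2a2 and Slc37a4. All 9 were found among the 16231 genes of the count table, and all 9 were among the 12747 genes that had enough counts to be tested. RNA-seq had been made from 9 mouse libraries: 3 of young control mice, 3 of old control mice (called aged here) and 3 of old mice given EGCG, epigallocatechin gallate, a catechin of green tea. The aged group is the control for the treated group, and the treated group therefore differs from the young one in age and treatment together. The samples are labelled as retina. The sources used here do not give ages, sex, strain, dose, route or length of treatment, feeding before collection or time of day of collection, nor whether each library came from its own animal. P-values therefore measure the spread among libraries, and that spread may be technical.

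Gluconeogenesis makes new glucose from lactate, alanine and glycerol, and the liver releases it when food is withheld. Pyruvate carboxylase (Pcx) turns pyruvate into oxaloacetate, phosphoenolpyruvate carboxykinase (Pck1) turns oxaloacetate into phosphoenolpyruvate, fructose-bisphosphatase (Fbp1) bypasses phosphofructokinase, and glucose-6-phosphatase (G6pc) frees glucose after its substrate has been carried into the endoplasmic reticulum by Slc37a4. Glucose then crosses the cell membrane through the transporter GLUT2 (Slc2a2), which also lets it enter after a meal. Liver pyruvate kinase (Pklr) acts in the opposite, glycolytic direction, and Gckr encodes a nuclear regulatory protein of hepatic glucose use. In the fasted liver glucagon, cAMP and the coactivator PGC-1alpha (Ppargc1a) are known to raise Pck1 and G6pc, and insulin is known to lower them.

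Although the samples are labelled retina, hepatocyte transcripts dominated all 9 libraries. All 8 hepatocyte markers were present, with Alb (albumin) at 81369 CPM (counts scaled to library size) or more in every library. Their summed level, most of it Alb, was 118074 to 120749 CPM in the young, 112104 to 113313 in the aged and 116852 to 121585 in the treated libraries. Of 8 photoreceptor and pigment epithelium markers 6 were in the table, and of these Sag, Pde6b, Cnga1 and Best1 stayed under 1 CPM everywhere while Gnat1 reached 32.0 CPM. Because Pck1 is also made in kidney, gut and fat, and Slc2a2 in islets, markers of those tissues were read too. The 2 kidney markers in the table summed to at most 0.124 CPM, the islet marker Chga reached at most 0.151 CPM, and the enterocyte markers Lct and Vil1 stayed under 1 CPM, although Apoa4 and Fabp2, which mouse liver also makes, did not, and neither did Slc5a1, which reached 1.14 CPM in an aged library. The 4 adipocyte markers in the table summed to 4.03 to 9.00 CPM over all libraries. The libraries held 34240500 to 39922044 counts each, with 14029 to 14731 genes detected, and none stood apart from the other 2 of its group. Markers of other liver cells moved with the groups: the 6 macrophage markers summed to 79.7 to 81.2 CPM in the young, 412 to 420 in the aged and 155 to 163 in the treated libraries. The 5 endothelial markers summed to 57.7 to 58.1, 153 to 165 and 45.6 to 50.4 CPM, and the 5 stellate cell and fibroblast markers to 72.6 to 84.2, 267 to 273 and 129 to 138 CPM, in the same order. The part of these cells in the results below was not tested, and in bulk RNA fewer hepatocytes and less RNA per hepatocyte cannot be told apart.

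Most of the glucose-producing enzymes were highest in the young and lowest in the EGCG-treated libraries. Fbp1, Pcx and G6pc stepped down from young to aged and again from aged to treated, Slc37a4 fell in both steps by more, and Pck1 fell 2.39-fold with treatment while its young and aged levels lay close together. Ppargc1a went the other way with age, from 4.05 ± 0.534 to 12.1 ± 0.916 CPM (SD, n = 3), and came down to 6.20 ± 0.416 CPM with EGCG. Pklr fell with age and stayed low with treatment, and Gckr rose with treatment by 0.22 on the log2 scale. By edgeR's quasi-likelihood test, with p-values adjusted over all genes tested and a threshold of 0.05, 8 of the 9 genes differed between aged and young libraries (1 higher, 7 lower), where 69.5% of all tested genes did so. Of all tested genes 33.4% were called higher and 36.1% lower. Between EGCG-treated and untreated aged libraries all 9 genes differed (2 higher, 7 lower), against 63.3% of all tested genes (31.8% higher, 31.5% lower), and between treated and young libraries all 9 again (2 higher, 7 lower), against 62.9% (30.8% higher, 32.1% lower). The median log2 fold change of the 9 genes was -0.22 for age, -0.42 for EGCG in old mice and -0.71 for treated against young, where that of all tested genes was -0.01, 0.01 and 0.02. Of the 8 hepatocyte markers 7 were also called lower with age and 1 higher (median -0.17). With EGCG 3 of those markers were lower and 4 higher (median 0.05). The contrasts share their control libraries and are set side by side here without a test between them.

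**Figure D1:**
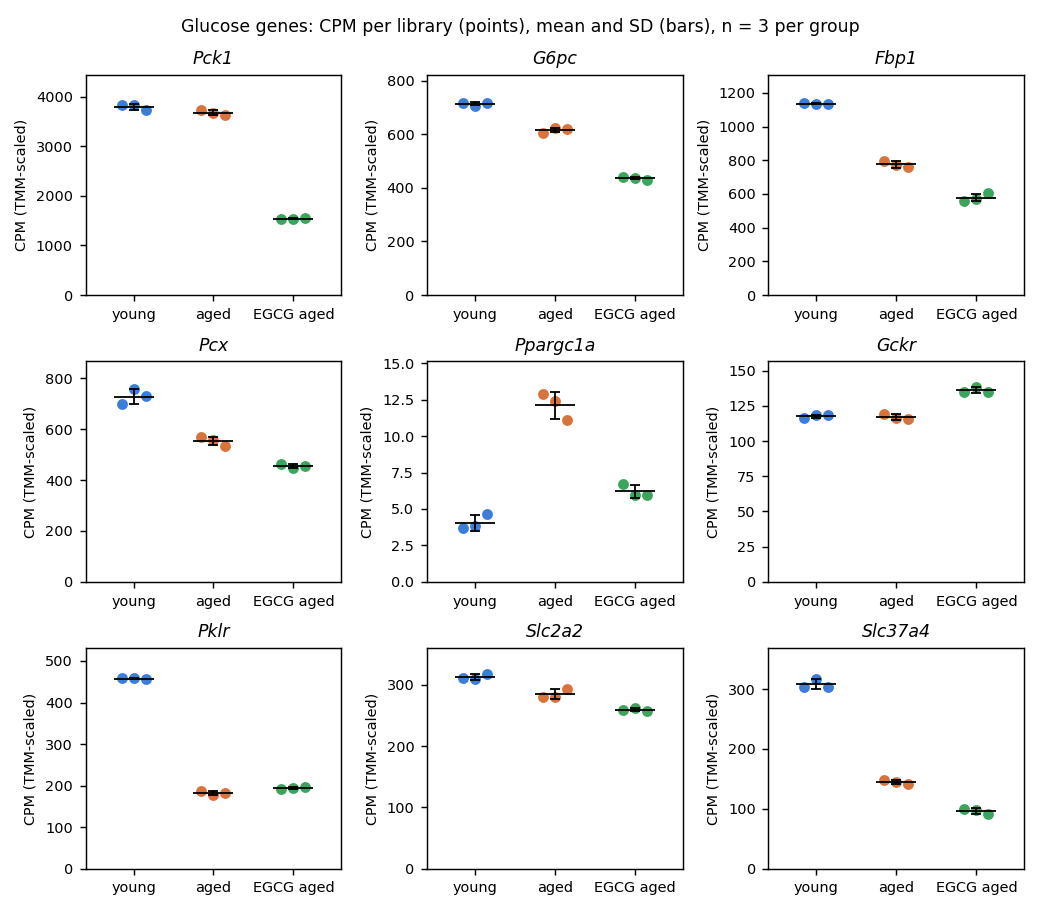
CPM scaled with TMM factors (vertical axis, from 0) of each glucose gene in the 3 young, 3 aged and 3 EGCG-treated aged libraries; points are libraries, the long bar is the mean and the error bar the SD. Pck1 lay between 3634 and 3826 CPM in all young and aged libraries and between 1531 and 1547 CPM in the treated ones, and Ppargc1a was highest in the aged libraries.

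Changes measured against the young group depended on how the libraries were scaled. TMM factors, which balance libraries of different composition, were 0.911 to 0.920 for the young and 1.03 to 1.06 for the old libraries. Without them, scaling by library totals alone, the median over all tested genes rose by 0.18 (log2) in the aged against the young libraries, and with upper-quartile factors by 0.09. Of the genes called with age, 48.1% were higher with TMM factors, 57.9% with upper-quartile factors and 67.3% with library totals; for treated against young the shares were 49.0%, 65.6% and 66.8%. Under library totals Pck1 stood at 0.15, Gckr at 0.19, Slc2a2 at 0.06 and G6pc at -0.02 (adjusted p = 0.538) in aged against young libraries, Pcx at -0.20, Fbp1 at -0.35, Slc37a4 at -0.89, Pklr at -1.12 and Ppargc1a at 1.78. A scaling factor shifts every gene of a library alike, so the distance of a gene from the median of all genes does not depend on it. That distance was -0.20 for G6pc, -0.54 for Fbp1 and -0.03 for Pck1 with age. On log2(FPKM + 1), where it can change, it was -0.11, -0.45 and 0.06. With EGCG in old mice Pck1 lay between -1.29 and -1.20 and G6pc between -0.53 and -0.44 over all alternatives. Slc2a2 ran from -0.16 to -0.08 and Pklr from 0.06 to 0.15. These ranges were about as wide as those of Pck1 and G6pc, but large beside the changes themselves. The low-count Ppargc1a moved more, from -0.99 to -0.36, the last on log2(FPKM + 1).

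Levels can be compared between genes only per transcript length, as FPKM (fragments per kilobase of transcript, scaled to library size). On that scale Pck1 was the most abundant of the 9 in every group, with 1317 ± 17.4 FPKM (SD, n = 3) in the young, 1466 ± 13.4 FPKM in the aged and 605 ± 2.23 FPKM in the treated libraries. Its rank among all genes was 55, 44 and 100 in the same order. Fbp1 came next (606, 475 and 349 FPKM), then G6pc (289 and 286 FPKM, and 196 to 204 FPKM in the treated libraries) and Pcx (155, 135 and 110 FPKM), and this order held in all 9 libraries. Below them the order changed. In the young libraries Pklr (143 FPKM) lay above Slc2a2 (112 FPKM) and Slc37a4 (97.1 FPKM), and in the aged ones Pklr had dropped to 65.7 FPKM and Slc37a4 to 52.4 FPKM. Aged Slc37a4 and Gckr, at 51.4 to 53.3 and 51.9 to 53.3 FPKM, could not be ranked beyond their spread. In the treated libraries Gckr, at 60.2 FPKM, lay above Slc37a4, at 34.4 FPKM. Ppargc1a was at the other end of the range, at 0.233, 0.801 and 0.405 FPKM, and ranked 10737, 9796 and 10558. Its FPKM rest on an implied length of 15903 bases, against 1718 to 4306 bases for the other genes. Whether that length suits the transcript made here was not tested. By CPM, which leaves length out, Ppargc1a ranked 8902, 6662 and 8329.

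Pck1 and Ppargc1a are textbook targets of cAMP signalling, and the DNA just upstream of them is shown because both windows hold the core of a cAMP response element. The sequences are from RefSeq on GRCm38.p6, run 5′ to 3′ on the strand of the gene and end where GENCODE M21 begins the gene. The Pck1 stretch is chr2:173152823-173153047 on the plus strand and the Ppargc1a stretch is chr5:51567727-51567975 on the minus strand. Capitals mark CGTCA, which is TGACG read on the other strand.
Pck1: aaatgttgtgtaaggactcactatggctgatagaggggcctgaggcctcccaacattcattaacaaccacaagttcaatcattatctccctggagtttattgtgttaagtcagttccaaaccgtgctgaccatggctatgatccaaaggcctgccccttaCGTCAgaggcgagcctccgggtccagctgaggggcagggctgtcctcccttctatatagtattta
Ppargc1a: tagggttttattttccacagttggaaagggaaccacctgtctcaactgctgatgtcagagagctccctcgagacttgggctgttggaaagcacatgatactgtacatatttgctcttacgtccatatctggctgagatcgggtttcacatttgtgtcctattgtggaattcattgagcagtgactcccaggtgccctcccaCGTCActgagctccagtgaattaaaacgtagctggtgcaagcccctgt
The core lies 90 bases before the RefSeq start of Pck1 and 49 bases before that of Ppargc1a. The RefSeq start of Ppargc1a used here is 13803 bases from the nearest start of a principal GENCODE transcript, so the window may not be the one used in these cells. On both strands of the 250 bases before each start, TGACG was in 17.8% of 32851 RefSeq windows and in 3 of the 9 genes, the third being Slc37a4. The 9 genes have 13 windows, as Slc37a4 has 3 and Pcx and Pklr have 2 each. A count of genes is therefore not a like measure to a share of windows. The full element TGACGTCA, which holds that core and is in 1.55% of windows, the forkhead motif GTAAACA (3.17%) and the C/EBP motif TTGCGCAA (0.164%) were in 0 of the 9. The E-box CACGTG (6.02%) was in 1, Pcx. A match describes letters only and does not show binding.

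The entry of pyruvate into the pathway was measured by Pcx (GRCm38, chr19:4510472-4621752, plus strand, overlapping Lrfn4). Its level was 697, 756 and 731 CPM in the young, 568, 558 and 535 CPM in the aged and 464, 447 and 456 CPM in the EGCG-treated libraries. The 3 groups did not overlap. The log2 fold change was -0.40 with age (SE 0.027, adjusted p = 4.53e-17) and -0.28 with EGCG (SE 0.027, adjusted p = 3.11e-12).

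Pck1 (chr2:173153048-173159273, plus strand) catalyses the step long regarded as committing carbon to gluconeogenesis. It stood at 3825, 3826 and 3720 CPM in the young and at 3724, 3667 and 3634 CPM in the aged libraries, ranges that overlap. In the EGCG-treated libraries it was at 1531, 1534 and 1547 CPM, well under every untreated library. Its change with EGCG in old mice was a 2.39-fold decrease (log2 fold change -1.26, SE 0.018, adjusted p = 3.44e-41), and against the young libraries a 2.47-fold decrease (-1.30). The difference with age passed the threshold narrowly (-0.04, adjusted p = 0.027), turned to 0.15 with library totals and 0.06 with upper-quartile factors, and no longer passed with DESeq2 (adjusted p = 0.243). It also failed without either of aged libraries 2 and 3 or young libraries 1 and 2. As a share of all counts, Pck1 was 0.347% in young, 0.387% in aged and 0.159% in treated libraries.

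Fbp1 (chr13:62864753-62888282, minus strand) encodes the bypass of phosphofructokinase. The young libraries held 1140, 1134 and 1134 CPM, the aged ones 797, 770 and 759 CPM and the treated ones 561, 571 and 603 CPM. No library of one group reached the range of another. The gene fell by 0.55 on the log2 scale with age (SE 0.024, adjusted p = 1.96e-23) and by 0.42 with EGCG (SE 0.024, adjusted p = 3.79e-19), so that treated old libraries held 1.96-fold less than young ones.

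G6pc (chr11:101367561-101377903, plus strand) and Slc37a4 (chr9:44396852-44402968, plus strand, overlapping Mir7085) encode the catalytic unit and the glucose-6-phosphate carrier of one enzyme system. G6pc was at 718, 707 and 717 CPM in the young, 605, 621 and 618 CPM in the aged and 440, 436 and 431 CPM in the treated libraries. Slc37a4 was at 304, 317 and 303 CPM, then 148, 145 and 142 CPM, then 101, 97.6 and 91.3 CPM. For both genes the groups followed one another without overlap, but the carrier fell further. With age Slc37a4 had a log2 fold change of -1.09 (SE 0.033, adjusted p = 1.65e-29) and G6pc one of -0.22 (SE 0.023, adjusted p = 4.85e-11), a call that library totals ended. With EGCG the values were -0.59 (SE 0.034, adjusted p = 5.64e-19) and -0.50 (SE 0.023, adjusted p = 2.20e-22). Treated libraries thus held 3.19-fold less Slc37a4 than young ones and 1.64-fold less G6pc. The difference between the 2 genes was not itself tested.

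Slc2a2 (chr3:28697903-28731359, plus strand, overlapping 1700112D23Rik) encodes the membrane transporter and changed least over both steps together among the 7 genes lower in treated than in young libraries. It was at 312, 309 and 318 CPM in the young, 280, 281 and 294 CPM in the aged and 259, 262 and 257 CPM in the treated libraries. The ranges were close but separate. Its change was -0.14 with age (SE 0.027, adjusted p = 2.84e-05), which became 0.06 with library totals and missed the threshold with upper-quartile factors (adjusted p = 0.351). With EGCG it was -0.14 as well (SE 0.027, adjusted p = 3.49e-05), or -0.08 with upper-quartile factors.

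On the glycolytic side, Pklr (chr3:89136142-89146784, plus strand, overlapping Hcn3) encodes the pyruvate kinase of liver, known to rise with carbohydrate feeding. It was at 458, 459 and 455 CPM in the young, 187, 178 and 183 CPM in the aged and 193, 194 and 196 CPM in the treated libraries. Every old library, treated or not, lay far under the young level. The decrease with age was 2.50-fold (log2 fold change -1.32, SE 0.027, adjusted p = 7.66e-36). The difference between treated and untreated aged libraries was 0.09 (SE 0.028, adjusted p = 0.00532). It was 0.15 with upper-quartile factors and missed the threshold without aged library 2 (0.07, adjusted p = 0.0529).

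Gckr (chr5:31297443-31327314, plus strand), the gene of the nuclear regulatory protein, was the one gene of the 9 whose difference between aged and young libraries did not pass edgeR's test with TMM factors. It was at 116, 118 and 118 CPM in the young and 119, 117 and 115 CPM in the aged libraries, which overlapped (log2 fold change -0.01, SE 0.034, adjusted p = 0.857). With library totals the same difference was 0.19 (adjusted p = 3.82e-06). The treated libraries, at 135, 139 and 135 CPM, lay above all others. The change with EGCG was 0.22 (SE 0.034, adjusted p = 3.60e-07).

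Ppargc1a (chr5:51454250-51567726, minus strand, overlapping Gm42613, Gm42614, Gm42615 and Gm43605) encodes the coactivator PGC-1alpha and was, with TMM factors, the only one of the 9 called higher with age. It had 115, 123 and 154 counts in the young libraries, or 3.69, 3.80 and 4.66 CPM. The aged libraries held 12.9, 12.4 and 11.1 CPM and the treated ones 6.68, 5.94 and 5.98 CPM. The groups did not overlap, and the aged one was the highest. The increase with age was 2.98-fold (log2 fold change 1.58, SE 0.13, adjusted p = 1.04e-14) and the decrease with EGCG 1.95-fold (-0.96, SE 0.12, adjusted p = 2.29e-09), which left treated libraries 1.53-fold above the young (0.61, SE 0.13, adjusted p = 9.59e-05). On log2(FPKM + 1), a scale that compresses low values, the change was 0.55 with age and -0.36 with EGCG. In the aged group, where Ppargc1a was highest, Pck1 was near its young level. G6pc was lower there than in the young with TMM factors, but was not called by edgeR's test with library totals (-0.02, adjusted p = 0.538). Any link between the levels of Ppargc1a and those of Pck1 and G6pc was not tested. Taking the 9 genes by CPM range, the groups did not overlap for 7 genes with age (71.4% of all tested genes), 9 with EGCG (66.9%) and 9 for treated against young (65.2%).

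**Figure D2:**
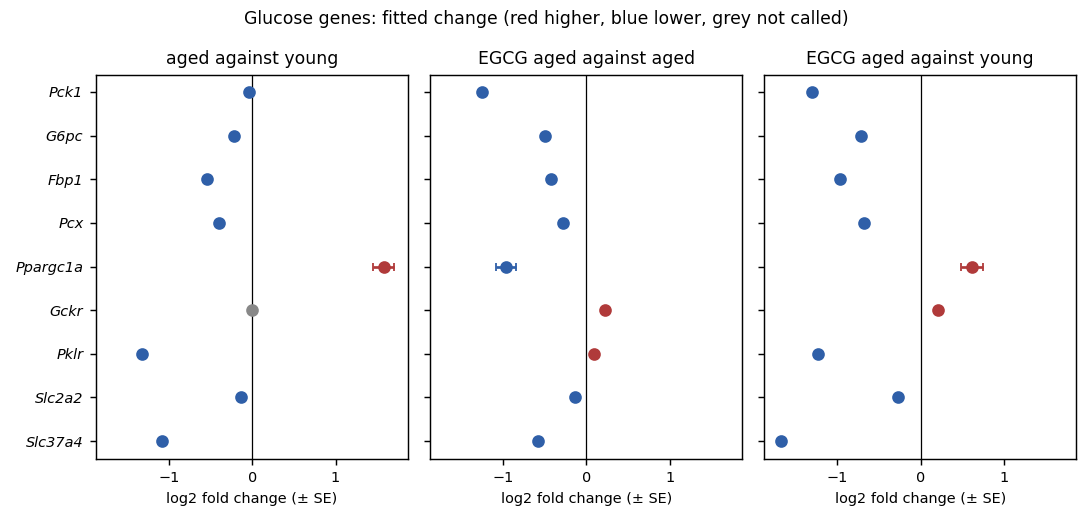
Log2 fold change with its SE (horizontal axis) of each glucose gene for the difference with age (left), with EGCG in old mice (middle) and of treated from young libraries (right), from edgeR's fit with n = 3 libraries a group; red is called higher, blue called lower and grey not called. In each panel 7 of the 9 genes are called lower, Ppargc1a changes side between the first panels, and the value of Gckr with age is -0.01.

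Opposing enzymes were set against each other as ratios of FPKM within a library, which do not depend on scaling between libraries. Fbp1 over Pfkl, liver phosphofructokinase, was 114, 105 and 110 in the young, 39.8, 39.3 and 38.8 in the aged and 37.4, 41.4 and 45.0 in the treated libraries. The young libraries stood 2.78-fold above the aged ones, and the aged and treated ranges overlapped. Pfkl rose with age from 24.7 ± 0.958 to 46.8 ± 0.624 CPM and fell with EGCG to 33.4 ± 1.95 CPM, alongside the fall of Fbp1.

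Pck1 over Pklr was 9.26, 9.25 and 9.07 in the young, 22.07, 22.83 and 22.03 in the aged and 8.82, 8.76 and 8.76 in the treated libraries. Here the aged group was the high one: the ratio rose 2.43-fold with age and fell 2.54-fold with EGCG, which brought it to 1.05-fold below the young. The rise went with a fall of Pklr (-1.32, Pck1 -0.04), and the fall with one of Pck1 (-1.26, Pklr 0.09). Against the young, treated libraries were lower in both Pck1 (-1.30) and Pklr (-1.23). The ratios therefore ordered the groups differently: Fbp1 over Pfkl was highest in the young and Pck1 over Pklr in the aged libraries. In exact two-sided permutation tests each difference had p = 0.1, the smallest that 3 against 3 libraries can give, except Fbp1 over Pfkl with EGCG (log2 difference 0.07, p = 0.5). After adjustment over the 9 comparisons computed, of which 6 are given here, these were 0.113 and 0.5, so none could pass the threshold.

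**Figure D3:**
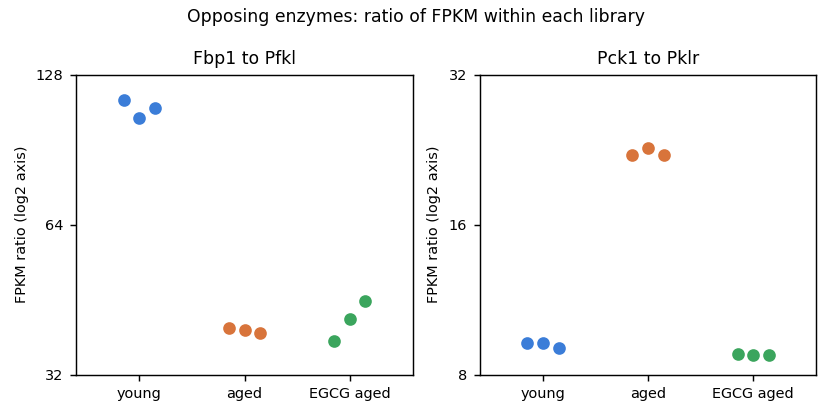
Ratio of FPKM within each library (vertical axis, log2 scale) of Fbp1 to Pfkl and Pck1 to Pklr; each point is 1 of 3 libraries per group. Fbp1 to Pfkl is at 105 to 114 in the young and at 45.0 or less in all old libraries, and Pck1 to Pklr is raised only in the aged ones.

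Several of the 9 genes have a relative with a similar reaction that is used outside the liver or in another compartment. Pck2, the mitochondrial carboxykinase, was at 0.530, 0.869 and 0.790 FPKM in the young, aged and treated groups, against group means of 605 FPKM or more for Pck1, and did not pass the test in any contrast. Its change with age was 0.52 (adjusted p = 0.069), which passed with library totals (0.72, adjusted p = 0.012), and 1 library, young 1, held 2.95 CPM against 1.58 and 1.39 CPM in the other 2. G6pc3, the ubiquitous glucose-6-phosphatase, was at 2.10, 3.18 and 3.43 FPKM. It rose with age by 0.40 (adjusted p = 0.04), a call lost without any one of young libraries 1 and 2 and aged libraries 2 and 3 (adjusted p = 0.0831 to 0.198), while G6pc fell. Fbp2, the muscle form of Fbp1, had too few counts to be tested and stayed under 0.2 CPM in each library.

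The relatives of the glycolytic Pklr and of the transporter Slc2a2 were higher in the aged than in the young libraries. Pkm, the pyruvate kinase of most other tissues, rose from 8.08 ± 0.962 to 31.0 ± 1.82 CPM with age (1.94, adjusted p = 6.18e-23) and fell to 11.8 ± 0.472 CPM with EGCG (-1.39, adjusted p = 1.45e-18), whereas Pklr fell with age. Pkm is also high in macrophages, whose 6 markers rose and fell in the same steps (6 of 6 called higher with age, 6 of 6 lower with EGCG). The part of those cells in the Pkm values was not tested. Slc2a1, encoding GLUT1, rose from 6.17 ± 1.24 to 12.6 ± 0.480 CPM with age (1.03, adjusted p = 8.89e-11) and was at 15.3 ± 0.765 CPM with EGCG (0.28, adjusted p = 0.0159), where Slc2a2 fell. The call with EGCG was lost without aged library 2 (adjusted p = 0.0569) or treated library 2 (adjusted p = 0.0634). The group means of Slc2a2, 105 to 117 FPKM, lay far above those of Slc2a1, 2.13 to 5.98 FPKM.

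**Figure D4:**
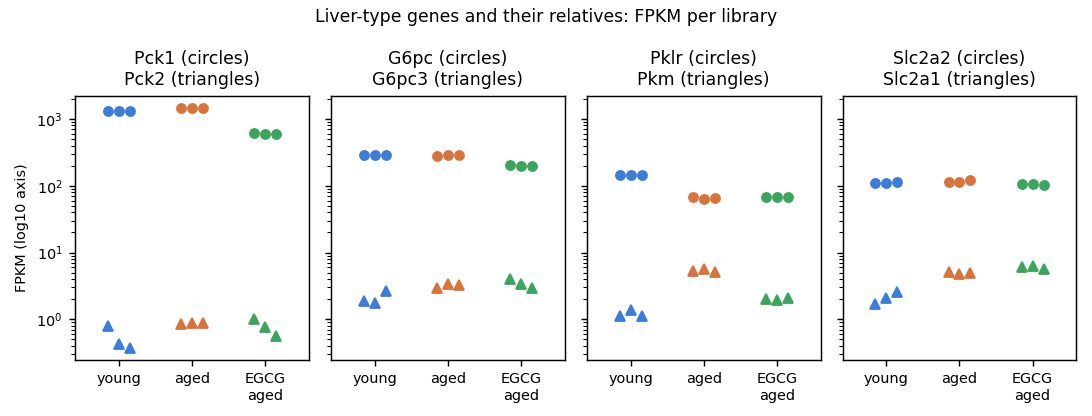
FPKM per library (vertical axis, log10 scale) of Pck1, G6pc, Pklr and Slc2a2 as circles and of their relatives Pck2, G6pc3, Pkm and Slc2a1 as triangles, 3 libraries per group. The liver forms lie above the relatives in every library, and Pkm is highest in the aged group, at a mean of 5.33 FPKM against 65.7 FPKM for Pklr.

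Other enzymes and carriers that feed gluconeogenesis fell with age in 22 of 29 tested cases (14 on log2(FPKM + 1)), and with EGCG more of them rose (14) than fell (9). Of 31 such genes listed, 30 were in the table. With age 5 were higher (8 on log2(FPKM + 1)), 22 lower and 2 not called, with a median log2 fold change of -0.25 (all genes -0.01). The 75.9% lower compare with 36.1% of all tested genes and the 17.2% higher with 33.4%. On log2(FPKM + 1) 5688 of all 12747 tested genes were higher with age and 2822 lower, against 4261 and 4596 with TMM factors. The counts on that scale therefore have another background. With EGCG 6 were not called (median 0.09, all genes 0.01), and the 31.0% lower were near the 31.5% of all tested genes, where 48.3% were higher against 31.8%. Decreases with age included those of Gpd2, the mitochondrial glycerol phosphate dehydrogenase (-1.03), enolase Eno1 (-0.69) and malate dehydrogenase Mdh2 (-0.68). With EGCG the cytosolic aspartate aminotransferase Got1 fell from 357 ± 9.47 to 195 ± 2.76 CPM (-0.87), the aspartate-glutamate carrier Slc25a12 by 0.53 and Gpi1 by 0.45, while the mitochondrial pyruvate carrier Mpc2 rose by 0.42.

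Genes of glucose entry and glycolysis rose with age in 15 of 21 tested cases, fell in 4 and were not called in 2 (median 0.57, all genes -0.01). The shares were 71.4% higher and 19.0% lower, against 33.4% and 36.1% of all tested genes. With EGCG 4 rose, 13 fell and 4 were not called (median -0.49, all genes 0.01), or 19.0% higher and 61.9% lower against 31.8% and 31.5%. Hexokinases Hk3 (2.32) and Hk1 (1.64) rose with age from low levels, 1.17 ± 0.550 and 1.80 ± 0.522 CPM, and fell with EGCG (-1.17 and -1.18). The macrophage markers moved in the same steps, and the part of such cells in the counts of this list was not tested. The 4 genes lower with age were Pfkfb3 (-1.54), Pfkfb1 (-1.09), Pfkfb2 (-0.87) and Khk (-0.74). Pfkfb3, a kinase that makes the phosphofructokinase activator fructose 2,6-bisphosphate, fell from 170 ± 5.84 CPM in the young to 58.6 ± 0.366 in the aged and 7.27 ± 1.62 CPM in the treated libraries (-3.01 with EGCG, adjusted p = 1.08e-33).

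Regulators of gluconeogenic transcription moved in both directions. Of 41 tested, 21 were higher and 13 lower with age (median 0.14), and 13 were higher and 22 lower with EGCG (median -0.33). On log2(FPKM + 1) the lower count with age was 7, where 2822 of all 12747 tested genes were lower, against 4596 with TMM factors. The 31.7% lower with age and the 31.7% higher with EGCG were near the 36.1% and 31.8% of all tested genes, and the 51.2% higher with age and 53.7% lower with EGCG lay above the 33.4% and 31.5%. With age the largest changes were increases: the orphan receptor Nr4a1 rose from 1.46 ± 0.300 to 52.0 ± 0.738 CPM (5.15), the AKT inhibitor Trib3 by 3.51, the coactivator Ppargc1b by 2.57 and the clock repressor Nr1d1 by 2.51. With EGCG Nr0b2, which encodes the repressor SHP, rose from 13.7 ± 0.854 to 92.7 ± 3.35 CPM (2.76), and the clock repressor Cry1 rose by 1.99. The insulin receptor substrate Irs2 fell with EGCG from 156 ± 5.32 to 33.9 ± 1.15 CPM (-2.20), and Nr4a1 by 2.15. Nr1d1 and Cry1 follow the time of day, and collection time cannot be told apart from the groups.

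A pair of gene lists known to respond to food in the liver was read because the sources used here give no feeding state. Of 24 fasting-induced genes, 10 were higher and 14 lower with age (median -0.33) and 12 were higher and 8 lower with EGCG (median 0.14). As shares these were 41.7% and 58.3% with age, against 33.4% and 36.1% of all tested genes, and 50% and 33.3% with EGCG, against 31.8% and 31.5%. Of 22 genes listed as feeding-induced, 11 were higher and 7 lower with age (median 0.06) and 17 were higher and 3 lower with EGCG (median 0.38). Here the shares were 50% and 31.8% with age and 77.3% and 13.6% with EGCG, so that the decreases with age were near the background. Between treated and young libraries the fasting list had 8 higher and 14 lower (median -0.27) and the feeding list 15 higher and 5 lower (median 0.46), where 30.8% and 32.1% of all tested genes were higher and lower. Across all 5 lists 8 genes are held by more than 1 list, and 0 of the 9 glucose genes are in any.

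Both lists held genes that moved in opposite directions. Among fasting-induced genes Igfbp1, an insulin-repressed binding protein, rose with age from 180 ± 3.35 to 501 ± 6.61 CPM (1.47) and fell with EGCG to 45.7 ± 2.11 CPM (-3.45), and Txnip went from 82.3 ± 2.78 to 613 ± 1.64 and back to 66.7 ± 1.98 CPM. Depp1 (6.45) and the pyruvate dehydrogenase kinase Pdk4 (2.28) rose with age, and Cyp4a10, a target of PPARalpha, fell (-1.92). With EGCG Lpin1 (-2.85) and Angptl4 (-2.34) fell. Among genes listed as feeding-induced the lipogenic gene Thrsp fell with age from 1408 ± 14.8 to 155 ± 5.56 CPM and the elongase Elovl6 by 1.92. Ppp1r3g, which targets a phosphatase to glycogen, rose from 0.323 ± 0.256 to 46.6 ± 1.78 CPM and Rgs16 by 2.26. The direction in which food moves Ppp1r3g and Rgs16 was not checked here, and their place on the feeding list is uncertain. Both are within the counts of that list given above, as higher with age and lower with EGCG. With EGCG Ppp1r3g returned to 0.530 ± 0.139 CPM and Rgs16 fell by 4.34, while Pnpla3 rose by 2.77 and Thrsp by 1.63. In treated against young libraries the lipogenic factor Srebf1 was higher (1.65). Whether the mice were fed or fasted alike cannot be told apart from age and treatment in these data.

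**Figure D5:**
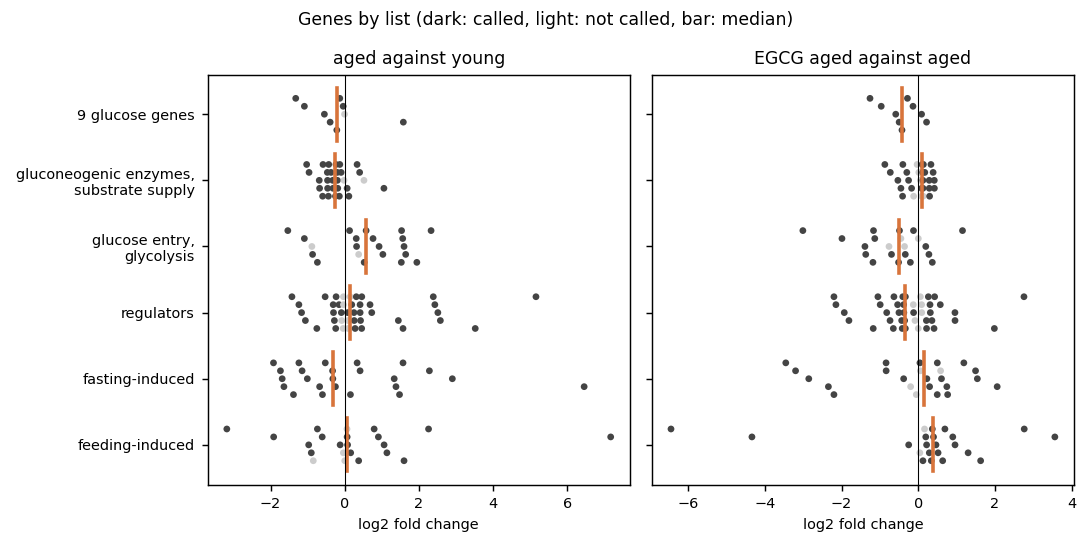
Log2 fold change (horizontal axis) of every tested gene of each list in aged against young (left) and EGCG-treated aged against aged libraries (right); dark points are called, light points not called and the orange bar is the median of the list. The median of the 9 glucose genes is -0.22 on the left and -0.42 on the right, and that of the feeding-induced genes 0.06 and 0.38, with points of each list on both sides of 0.

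The genes whose levels ran most like each of the 9 over the 9 libraries were found by the root mean square difference of centred log2 CPM among 8805 genes with a mean of at least 5 CPM. For Pck1 they were Slc25a32 (0.0778) and Cpd (0.0832), for G6pc Sf3b1 (0.0289) and Hnf4a (0.033), for Fbp1 Map3k5 (0.0375) and Fgl1 (0.0395) and for Pcx Gm4737 (0.0396) and Dusp3 (0.0401). Slc37a4 had Gfra1 (0.0747) and Tspan4 (0.0816), Slc2a2 had Rnf10 (0.0209) and Psmc1 (0.0288), Gckr had Acly (0.0222) and Spint2 (0.026), Pklr had Dnajb9 (0.0394) and Creb3l3 (0.0409) and Ppargc1a had Prss8 (0.105) and Tsc22d3 (0.117). On log2(FPKM + 1) Klf15 was nearest to Ppargc1a (0.0367), and Prss8 and Tsc22d3 ranked 7321 and 7935 of 8805. Adding 1 compresses Ppargc1a, at group means of 0.233 to 0.801 FPKM, more than Prss8 (2.47 to 9.37) and Tsc22d3 (9.74 to 35.7). That ranking therefore cannot decide whether the likeness holds. On the same scale Slc25a32 and Cpd ranked 12 and 27 for Pck1. All likenesses given here are over 3 groups of libraries, and carry no test. Creb3l3, for example, went from 402 ± 10.5 CPM in the young to 171 ± 3.13 in the aged and 177 ± 1.16 CPM in the treated libraries, as Pklr did, and Acly from 478 ± 5.36 and 477 ± 2.72 to 555 ± 5.64 CPM, as Gckr did.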

How the data were processed

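Bulk RNA-seq was available for 9 mouse libraries, 3 a group. Per the file headers, the authors deposited raw counts per gene symbol and FPKM for the same 16231 genes. The deposited FPKM equal the counts over the library total and over 1 length per gene, as checked here. The submitters' processing notes name GRCm38 and mm10. The sources used here do not give the aligner, counter, annotation or strandedness, so overlapping and antisense genes may share reads. The count model was a quasi-likelihood fit in edgeR 4.0.16 (R 4.3.3) with TMM factors and filterByExpr (minimum count 10) of all 9 libraries with 1 term per group and Benjamini-Hochberg adjustment over 12747 genes. CPM use the TMM factors. Groups came from sample titles. Alternatives used DESeq2 1.42.0, limma 3.58.1 on FPKM, other scalings, filters and subsets, and are described in the closing section. The count test was tested on simulated data with known changes. Within groups, library pairs differed beyond sampling noise, at 3.79 to 4.78 chi-square units per degree of freedom.

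The 9 genes and all lists were chosen with earlier results of these data known. Besides the 9, each list names up to 4 genes per comparison with the largest change among those called with at least 5 CPM in a group, plus close relatives and the 2 genes nearest in pattern. Some genes so named are not reported here. Coordinates are GENCODE M21, GRCm38. All 9 genes matched the RefSeq promoter table.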

Additional observations from a re-analysis of the deposited data

How the results depend on the processing

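With EGCG in old mice, 8 or 9 of the 9 genes were called under every alternative run, 7 of them lower, or 6 without the 50 most abundant genes, which include Pck1. Between treated and young libraries 9 were called, or 8 without those genes. The share of all tested genes called was lowest without a filter on low counts. It was then 8123 of 16231 genes with EGCG and 8105 for treated against young. The share was highest with only genes of at least 5 CPM in 3 libraries, at 6605 and 6735 of 9229. With age 7 or 8 of the 9 were called. All tested genes called with age were 9041 of 16231 without a filter and 6835 of 9229 with the 5 CPM filter. Small changes turned with the scaling, and so did directions among the called genes. With library totals Pck1, Gckr, Slc2a2 and Ppargc1a were called higher with age, and Fbp1, Pcx, Slc37a4 and Pklr lower. On that scaling 5922 of all 12747 tested genes were higher and 2878 lower, against 4261 and 4596 with TMM factors. Pck1 with age was 0.062 with upper-quartile factors, 0.15 with library totals, 0.046 with only genes of at least 5 CPM in 3 libraries and 0.15 on log2(FPKM + 1) and on log2(FPKM + 0.1). In the same order Gckr was 0.10, 0.19, 0.083, 0.19 and 0.19. Gckr was also 0.014 with DESeq2, 0.020 with a fit of the 2 groups alone and 0.013 without the 50 most abundant genes, and ranged from -0.022 to 0.0026 without 1 library. With library totals and on both FPKM scales Slc2a2 was 0.064, 0.063 and 0.063 and Mpc2 0.065, 0.064 and 0.064. Pck2 with EGCG ranged from -0.34 to 0.065 without 1 library. The shifts against young libraries go with the shift of the median of all genes given above. Without 1 library in turn the ratio of Pck1 to Pklr stayed between 1.26 and 1.29 (log2) with age and between -1.35 and -1.33 with EGCG. The ranking of likeness on log2(FPKM + 1) was chosen after seeing the data.

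Library numbers in the titles did not pair the samples: same-numbered libraries of different groups had correlations of -0.044 to 0.019. With a replicate block 8, 9 and 9 of the 9 genes were called in the 3 comparisons, as without it. Of all 12747 tested genes 8749, 7957 and 7907 were called with the block, against 8857, 8064 and 8014 without it. The block moved Pck2 with age past the threshold (0.58, adjusted p = 0.0379). Groups of 3 limit the exact tests of ratios to p = 0.1, and Ppargc1a, Pck2 and G6pc3 rest on few counts.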
